A study of Homo sapiens with 6 samples.

Results

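The 44 collagen chain genes of this data set encode the alpha chains from which the collagens are assembled. The rule takes every symbol made of COL, a type number, the letter A and a chain number. The deposited table lists 21293 genes, and the 44 members were read in all 6 libraries. They comprise 11 fibrillar chains, 6 chains of basement membrane collagen IV, 10 FACIT chains (fibril-associated collagens with interrupted triple helices), 4 transmembrane chains, 5 chains of the beaded filament collagen VI, 3 short-chain network chains, 2 multiplexins, the chain of anchoring fibrils (COL7A1) and 2 others.

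Gene expression was measured by RNA-seq of polyA RNA from H2087-LCC cells, a metastatic derivative of the human lung adenocarcinoma (LUAD) line H2087 that enters dormancy in mice. All groups were the same cells in culture: 2 libraries after 3 days with SB505124 (SB), which inhibits the kinase of the TGFβ receptor, 2 libraries after 3 days with TGF-β (TGFβ), and 2 libraries after 7 days with TGFβ. SB sets the baseline by blocking TGFβ signaling that the cultures make themselves, so the comparisons ask how collagen transcripts stand after short and longer TGFβ exposure relative to blocked signaling. H2087-LCC is a single population selected in mice from a line of a stage I tumor. Libraries within a group are technical replicates in the study's terms, so that SD and p-values may not cover the spread between separate cultures. SB was sampled at 3 days alone, and TGFβ at 7 days against SB therefore also compares time in culture.

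Collagens are built from alpha chains that wind around each other into a triple helix, some from copies of one chain and others from different chains that are each needed. Fibrillar types form the tensile fibrils of connective tissue, type IV forms the sheet of basement membranes, type VI forms beaded filaments around cells, and FACITs and multiplexins decorate fibrils and basement membranes. TGFβ is a classical inducer of collagen genes in fibroblasts, and carcinoma cells can also transcribe collagens when TGFβ drives an epithelial–mesenchymal transition (EMT).

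Values are normalized counts, that is, reads per gene scaled by the authors to a common library size. Library totals lay between 34306283 and 36340734, and 1 read was worth an estimated 0.896 to 1.1 normalized counts. By that estimate each library held 32000000 to 40000000 assigned reads. The summed level of 9 lung epithelial markers was 105587 to 123187 in SB, 98885 to 111178 at 3 days and 89149 to 102066 at 7 days, and most of it was KRT8 and KRT18, at 31757 or more in every library. The other epithelial markers differed in direction. KRT7 was at 5860 and 6183 in SB and 13979 and 11230 at 7 days. KRT19, at 4333 and 5857 against 6809 and 5218, overlapped between these groups. EPCAM was at 10180 and 9106 in SB and 2988 and 3277 at 7 days, NKX2-1 was at 2784 and 2908 against 853 and 857, and NAPSA at 99 and 234 against 9 and 5. SFTPB, a surfactant gene of the alveolar epithelium, was at 1104 and 8273 in the SB libraries, which thus differed from each other, and at 19 to 24 in every TGFβ library, and SFTPC was at 0 or 1. The summed level of 7 fibroblast markers was 26 to 41 in SB, 97 to 107 at 3 days and 334 to 413 at 7 days. Of those markers LUM was listed at 0 in every library, DCN was at 0 or 1 and THY1 at 0 to 2. PDGFRA was at 14 and 8 in SB, 16 and 16 at 3 days, and 13 and 8 at 7 days. At 7 days the sum was mostly PDGFRB and FAP.

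Collagen transcripts made up a small part of these libraries and a larger part with TGFβ. Summed over the 44 members, they held 0.0343% ± 0.00514 (SD, n = 2) of the normalized counts in SB, 0.0588% ± 0.0125 after 3 days and 0.095% ± 0.0141 after 7 days of TGFβ. The 6 libraries took 0.0306% and 0.0379% in SB, 0.0499% and 0.0676% at 3 days, and 0.105% and 0.085% at 7 days. The groups did not overlap, and the mean share was 2.77 times as large at 7 days as in SB. With 2 libraries a group, an exact permutation test cannot give a two-sided p below 0.333, so no test was made of this sum. In bulk RNA, more cells transcribing a gene and more RNA per transcribing cell cannot be told apart.

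Most collagen chain genes that were expressed rose with TGFβ, and more of them had risen by day 7 than by day 3. Of the 44 members, 25 averaged 10 normalized counts or more over the libraries and entered the test. Among the higher members counted here, COL6A5 had a mean of 3.5 in SB and met that minimum only through the TGFβ libraries. After 3 days 11 of the 25 were higher than in SB (44%, against 14.9% of the 14395 genes tested) and 1 was lower (4.0%, against 14.0%). After 7 days 17 were higher than in SB (68%, against 27.7% of all genes tested) and 2 were lower (8.0%, against 26.9%). Between 3 and 7 days of TGFβ, 12 were higher at 7 days (48%, against 17.0%) and 2 were lower (8.0%, against 16.2%). The median log2 fold change of the 25 was 0.61, 1.18 and 0.56 in these comparisons, beside medians of -0.0215, -0.00081 and 0.0187 over all genes tested. Calls are at an adjusted p of at most 0.05 in the moderated test of limma with Benjamini-Hochberg adjustment over all genes tested, and fold changes are on the scale of log2(normalized count + 1). The 3-day and 7-day comparisons share the SB libraries, so their counts are not independent of each other. The 12 higher members between 3 and 7 days became 6 without the first 3-day library, 6 without the first 7-day library, 6 with no filter on low values and 7 without the trend. With no filter the calls lost there were those of COL1A1, COL6A1, COL6A2, COL7A1, COL9A3, COL16A1 and COL18A1, and against SB those of COL6A1, COL6A2 and COL9A3 at 3 days and of COL11A2 at 7 days. The lower member at 3 days became 0 without the second SB library or the first 3-day library.

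**Figure D1:**
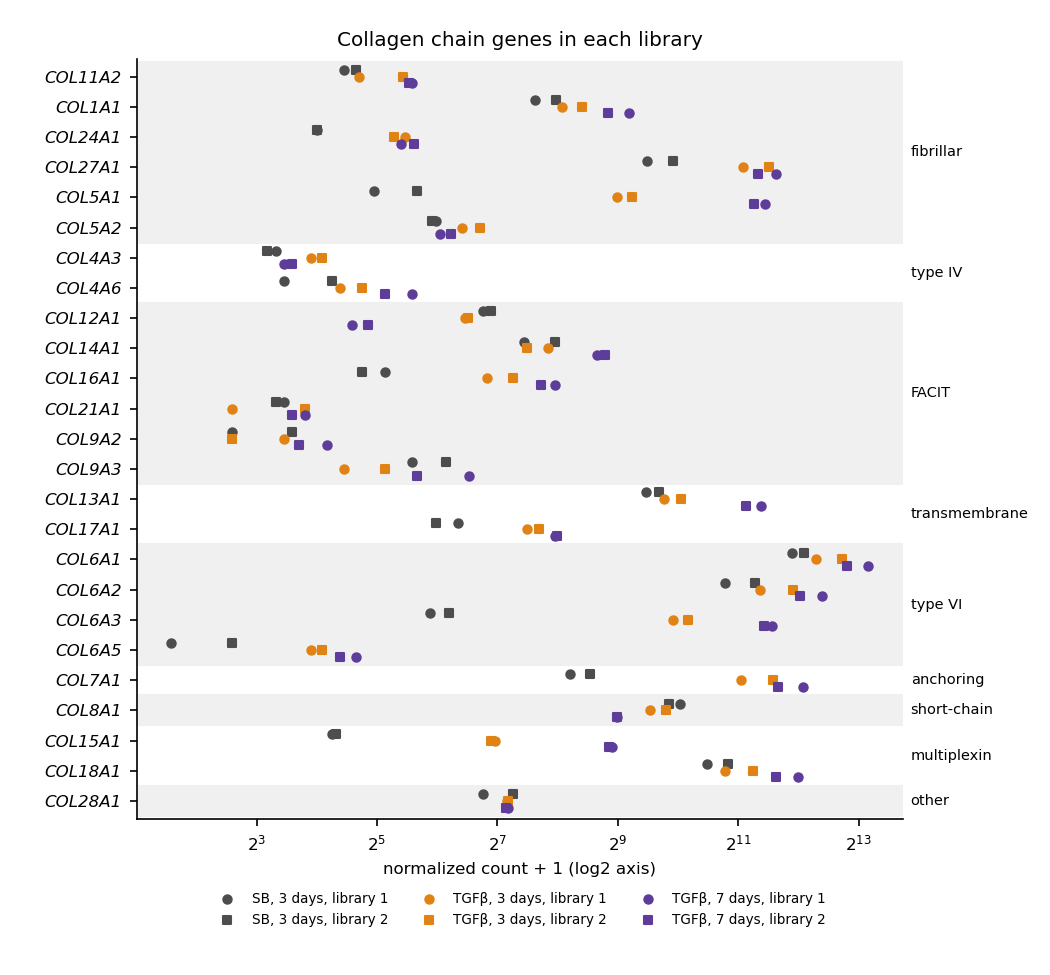
Normalized count + 1 (log2 axis) of the 25 tested collagen chain genes in each of the 6 libraries, ordered by class, with gray for SB, orange for TGFβ at 3 days and purple for TGFβ at 7 days. COL5A1, COL6A3 and COL15A1 shift rightward at each step with no overlap between groups, and COL12A1 moves leftward at 7 days.

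Sorted by which comparisons passed the threshold, the members fell into few sets. Close values can fall on either side of it: between 3 and 7 days COL6A1 passed at 0.47 and COL17A1 did not at 0.38. Some calls also changed with the settings of the fit, and COL1A1, COL13A1 and COL18A1 passed at 3 days with GC content correction. COL5A1, COL6A1, COL6A2, COL6A3, COL7A1, COL15A1 and COL16A1 (7 members) were higher in all 3 comparisons. COL6A5, COL17A1, COL24A1 and COL27A1 (4 members) were higher than in SB at both times with no difference past the threshold between them. COL1A1, COL13A1, COL14A1 and COL18A1 (4 members) passed no threshold at 3 days and were higher at 7 days than in either other group. COL4A6 and COL11A2 were higher at 7 days against SB alone, COL8A1 and COL12A1 were lower at 7 days than in either other group, and COL9A3 was lower at 3 days than in SB and higher at 7 days than at 3 days. The other 5 tested members, COL4A3, COL5A2, COL9A2, COL21A1 and COL28A1, passed the threshold in no comparison.

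The start regions of 6 members are shown, 5 for the size of their response and 1 as an example of a chain under the minimum for the test: COL5A1, COL6A3, COL15A1 and COL7A1 had the largest fold changes upward at 7 days, COL12A1 the largest downward, and COL4A2 was at 3 to 17. They were picked with these values known. Each line gives 300 bases, from 250 before to 50 after a transcription start, 5′ to 3′ on the gene's strand, from the RefSeq promoter table of GRCh38.p14. Capitals mark CAGAC or its reverse complement GTCTG, a core letter string of SMAD binding elements, and GGGCGG or its reverse complement CCGCCC, the GC box of SP1. Where both stand in the same window they do not overlap, and in COL12A1 a pair of them adjoins.
COL5A1 (chr9:134641553-134641852, plus strand): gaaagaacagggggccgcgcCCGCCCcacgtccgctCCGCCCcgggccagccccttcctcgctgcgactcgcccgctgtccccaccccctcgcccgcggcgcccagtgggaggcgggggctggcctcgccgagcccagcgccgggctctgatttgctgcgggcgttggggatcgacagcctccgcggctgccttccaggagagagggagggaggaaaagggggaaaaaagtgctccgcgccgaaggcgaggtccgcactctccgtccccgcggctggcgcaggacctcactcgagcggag
COL6A3 (chr2:237414115-237414414, minus strand): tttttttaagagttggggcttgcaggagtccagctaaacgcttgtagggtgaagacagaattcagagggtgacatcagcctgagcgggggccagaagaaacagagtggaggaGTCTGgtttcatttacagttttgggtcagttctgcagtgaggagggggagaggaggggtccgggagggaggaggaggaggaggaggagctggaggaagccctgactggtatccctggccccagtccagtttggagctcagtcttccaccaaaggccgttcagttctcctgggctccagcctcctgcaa
COL15A1 (chr9:98943657-98943956, plus strand): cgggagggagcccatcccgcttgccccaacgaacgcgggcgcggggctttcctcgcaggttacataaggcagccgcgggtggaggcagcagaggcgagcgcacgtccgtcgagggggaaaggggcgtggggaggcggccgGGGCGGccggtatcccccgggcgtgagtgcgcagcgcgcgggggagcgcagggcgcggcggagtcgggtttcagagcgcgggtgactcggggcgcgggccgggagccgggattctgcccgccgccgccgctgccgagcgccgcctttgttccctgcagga
COL7A1 (chr3:48595280-48595579, minus strand): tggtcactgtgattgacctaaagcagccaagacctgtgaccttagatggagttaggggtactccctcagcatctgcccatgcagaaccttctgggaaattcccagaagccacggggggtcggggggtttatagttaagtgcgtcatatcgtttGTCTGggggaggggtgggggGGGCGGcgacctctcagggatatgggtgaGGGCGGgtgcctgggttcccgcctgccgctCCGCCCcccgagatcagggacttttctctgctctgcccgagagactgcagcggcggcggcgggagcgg
COL12A1 (chr6:75206004-75206303, minus strand): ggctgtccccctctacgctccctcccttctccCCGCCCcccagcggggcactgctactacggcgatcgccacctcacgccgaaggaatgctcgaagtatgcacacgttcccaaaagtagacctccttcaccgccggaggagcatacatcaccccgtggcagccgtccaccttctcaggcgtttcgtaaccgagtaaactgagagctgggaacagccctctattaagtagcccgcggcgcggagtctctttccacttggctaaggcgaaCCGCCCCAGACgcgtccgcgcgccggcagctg
COL4A2 (chr13:110307034-110307333, plus strand): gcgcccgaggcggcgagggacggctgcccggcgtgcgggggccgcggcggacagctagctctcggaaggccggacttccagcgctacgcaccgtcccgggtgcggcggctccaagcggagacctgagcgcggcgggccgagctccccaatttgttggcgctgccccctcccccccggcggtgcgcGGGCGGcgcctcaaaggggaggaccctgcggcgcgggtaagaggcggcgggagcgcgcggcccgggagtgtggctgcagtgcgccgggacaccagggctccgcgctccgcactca

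Both letter strings occurred in members of either direction. Of the 4 strong risers, COL6A3 and COL7A1 held 1 SMAD box each and COL5A1 and COL15A1 none in these windows, while the falling COL12A1 held 1. The GC box occurred 2 times in COL5A1, 3 times in COL7A1, 2 times in COL12A1 and 1 time each in COL15A1 and COL4A2, and was not found in COL6A3. The table held 44 windows for 32 of the 44 members, and COL1A1, COL1A2, COL2A1, COL3A1, COL5A2, COL6A1, COL6A5, COL8A1, COL9A3, COL14A1, COL20A1 and COL22A1 had no entry. Searched on both strands, CAGAC was in 40.9% of the member windows and in 45.3% of all 35116 windows, and GGGCGG in 54.5% and 45.0%. The CCAAT box (CCAAT) was in 31.8% of member windows and 34.6% of all, the TATA box (TATAAA) in 18.2% and 11.5%, and the AP-1 site (TGANTCA) in 2.27% and 7.71%. The windows of COL4A1 and COL4A2, which lie head to head on chromosome 13, share 226 bases, and those of COL4A3 and COL4A4 share 82.

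Among the fibrillar chains, COL5A1 stood apart. Of 11 fibrillar members 6 were tested. Against SB 3 were higher at 3 days (14.9% of all genes tested) and 5 at 7 days (27.7% of all genes tested). None was lower, beside 14.0% and 26.9% of all genes tested, and with 6 members this is a small count. COL5A1 (chr9:137533649-137736689 on GRCh37, plus strand) encodes the alpha1 chain of collagen V, a minor fibrillar collagen that sits inside collagen I fibrils and limits their width. It was at 30 and 50 normalized counts in SB, at 508 and 605 after 3 days, and at 2770 and 2465 after 7 days. No library of one group overlapped another, and the 7-day mean was 65.4 times the SB mean. The log2 fold change was 3.80 ± 0.20 (SE, adjusted p = 8.3e-08) after 3 days and 6.04 ± 0.20 (adjusted p = 7.91e-10) after 7 days, with a further 2.23 ± 0.20 between 3 and 7 days (adjusted p = 2.7e-05).

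Its partner chain did not follow it. COL5A2 encodes the alpha2 chain of collagen V, of which the common trimer holds a single copy beside copies of alpha1. COL5A2 was at 62 and 59 in SB, 84 and 104 after 3 days, and 65 and 74 after 7 days. The 7-day values lay between those of the other groups, and the log2 fold change at 7 days was 0.19, with a 95% interval from -0.28 to 0.67. At 3 days it was 0.62 (adjusted p = 0.0525), just short of the threshold, and the alternatives in which it passed included the GC content correction (adjusted p = 0.0372) and upper quartile scaling (adjusted p = 0.047). Per kilobase of transcript, the ratio of COL5A1 to COL5A2 was 0.391 and 0.686 in SB, 4.89 and 4.71 at 3 days, and 34.5 and 26.9 at 7 days. COL5A1 thus went from the scarcer to the more abundant transcript of the pair in both TGFβ groups. COL5A3, the third chain of the type, was at 0 to 3 in every library.

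Collagen I, the main collagen of connective tissue, was represented by one of its chains. COL1A1, its alpha1 chain, was at 196 and 250 in SB, 267 and 337 at 3 days, and 581 and 457 at 7 days. All TGFβ libraries were above the SB libraries, and both 7-day libraries were above both 3-day libraries. It was higher at 7 days than in SB by 1.22 ± 0.18 (log2 fold change ± SE, adjusted p = 0.000144) and than at 3 days by 0.78 ± 0.18 (adjusted p = 0.00691). The 3-day log2 fold change of 0.44 did not pass the threshold (adjusted p = 0.0907). COL1A2, which encodes the alpha2 chain that normally completes the collagen I trimer, was at 0 and 2, 4 and 5, and 4 and 0 in the same libraries. COL3A1, the chain of collagen III in soft connective tissue, was at 0 in 5 libraries and at 1 in the other. The call for COL1A1 between 3 and 7 days was lost without the first 3-day library (0.61, adjusted p = 0.0581) or without the first 7-day library (0.61, adjusted p = 0.0834).

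COL27A1 and COL24A1 rose by 3 days and COL11A2 by 7 days. COL27A1, a fibrillar chain of cartilage and epithelia, was at 717 and 967 in SB, 2150 and 2904 after 3 days, and 3152 and 2583 after 7 days. The TGFβ groups overlapped each other and both were above SB, by 1.58 (adjusted p = 2.18e-05) after 3 days and 1.78 (adjusted p = 3.88e-06) after 7 days. COL24A1, a fibrillar chain described in bone and cornea, was at 15 in both SB libraries, at 43 and 38 at 3 days and at 41 and 48 at 7 days, again with overlapping TGFβ groups. Its log2 fold changes were 1.37 (adjusted p = 0.00331) and 1.5 (adjusted p = 0.000796). COL11A2, a chain of cartilage collagen XI, was at 21 and 24 in SB, 25 and 42 at 3 days, and 47 and 45 at 7 days. It was higher than in SB at 7 days by 1.0 (adjusted p = 0.0168), which was not past the threshold without the first SB library (0.91, adjusted p = 0.0603), without the first 7-day library (0.97, adjusted p = 0.0792) and without the second (1.03, adjusted p = 0.0665). COL11A1 was at 0 in every library and COL2A1, the chain of cartilage collagen II, was at 0 to 3.

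Collagen VI was the most abundant type per kilobase of transcript, and its chains rose by different amounts. Its 4 tested chains were higher than in SB at both times, beside 14.9% and 27.7% of all genes tested. Of these COL6A5, with a mean of 3.5 in SB, met the minimum for the test only through the TGFβ libraries. COL6A1 and COL6A2, neighbors on chromosome 21, encode the short alpha1 and alpha2 chains, and COL6A3 on chromosome 2 encodes the long alpha3 chain that joins them in the trimer. COL6A3 (chr2:238232646-238322971 on GRCh37, minus strand) was at 58 and 72 in SB, 963 and 1149 after 3 days, and 3017 and 2756 after 7 days. The groups were far apart, and the 7-day mean was 44.4 times the SB mean. The log2 fold change was 4.0 ± 0.14 (SE, adjusted p = 2.9e-09) after 3 days, 5.46 ± 0.14 (adjusted p = 9.61e-11) after 7 days and 1.45 ± 0.14 between them (adjusted p = 3.9e-05).

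COL6A1 and COL6A2 started high and rose less. COL6A1 was at 3802 and 4358 in SB, 5006 and 6774 after 3 days, and 9133 and 7157 after 7 days. COL6A2 was at 1763 and 2477 in SB, 2627 and 3860 after 3 days, and 5398 and 4183 after 7 days. For both genes each group lay above the one before it without overlap. At 7 days COL6A1 was higher than in SB by 0.99 ± 0.15 (adjusted p = 0.000137) and COL6A2 by 1.18 ± 0.19 (adjusted p = 0.000262).

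The smaller steps of this pair depended on single libraries and on the settings of the fit. At 3 days COL6A1 was higher by 0.52 (adjusted p = 0.0196) and COL6A2 by 0.61 (adjusted p = 0.0319), and between 3 and 7 days they rose by a further 0.47 (adjusted p = 0.0268) and 0.58 (adjusted p = 0.0363). Without the second 3-day library the 3-day values were 0.30 for COL6A1 (adjusted p = 0.156) and 0.33 for COL6A2 (adjusted p = 0.215), and without the first SB library 0.42 (adjusted p = 0.126) and 0.36 (adjusted p = 0.247). Without the first 3-day library the later step was 0.26 for COL6A1 (adjusted p = 0.23) and 0.30 for COL6A2 (adjusted p = 0.267), and without the first 7-day library 0.30 (adjusted p = 0.235) and 0.39 (adjusted p = 0.237). With libraries scaled to equal totals the 3-day calls were also lost, at 0.46 for COL6A1 (adjusted p = 0.0519) and 0.55 for COL6A2 (adjusted p = 0.0745), as was the later step of COL6A2 (0.59, adjusted p = 0.058). Without the trend all these calls were lost, at 3 days with an adjusted p of 0.125 for COL6A1 and 0.163 for COL6A2 and for the later step of 0.136 and 0.163.

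Per kilobase of transcript, COL6A2 kept a near constant proportion to COL6A1 and COL6A3 did not. The ratio of COL6A2 to COL6A1 was 0.566 and 0.693 in SB, 0.64 and 0.695 at 3 days, and 0.721 and 0.713 at 7 days, with overlap between SB and 3 days. The ratio of COL6A3 to COL6A1 was 0.00609 and 0.00659 in SB, 0.0768 and 0.0677 at 3 days, and 0.132 and 0.154 at 7 days. COL6A3 was thus the scarcest of the 3 chains in every library, and its gap to COL6A1 narrowed in both TGFβ groups. COL6A5, which encodes an alternative chain of the alpha3 kind, was at 2 and 5 in SB, 14 and 16 at 3 days, and 24 and 20 at 7 days. Its log2 fold changes were 1.91 (adjusted p = 0.00748) and 2.43 (adjusted p = 0.000714), and at counts this low the added 1 understates the change. COL6A6, another chain of that kind, was at 2 to 4 in every library.

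**Figure D2:**
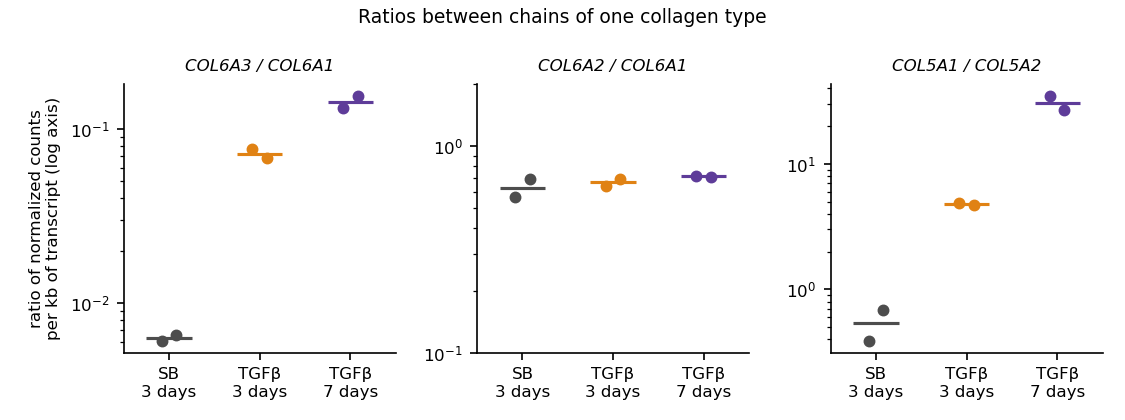
Ratio of normalized counts per kilobase of transcript (log axis) between chains of collagen VI and of collagen V, with points for the 2 libraries of each group and a line at their mean. The COL6A3 to COL6A1 mean goes from 0.00634 in SB to 0.143 at 7 days and the COL5A1 to COL5A2 mean from 0.538 to 30.7, while the COL6A2 to COL6A1 mean stays between 0.63 and 0.717.

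COL7A1 and COL17A1 encode the collagens that anchor epithelia to the matrix beneath them, and both rose. COL7A1, the chain of the anchoring fibrils, was at 293 and 370 in SB, 2124 and 3054 after 3 days, and 4324 and 3240 after 7 days. The groups did not overlap, and the 7-day mean was 11.4 times the SB mean. The log2 fold change was 2.95 ± 0.18 (adjusted p = 2.67e-07) after 3 days and 3.50 ± 0.18 (adjusted p = 2.62e-08) after 7 days. The further 0.56 between 3 and 7 days (adjusted p = 0.0343) was not past the threshold without the first 3-day library (0.29) or without the first 7-day library (0.35). It was also lost with equal library totals (0.56, adjusted p = 0.053) and without the trend (0.56, adjusted p = 0.147).

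COL17A1 encodes the transmembrane collagen of hemidesmosomes, the junctions that bind basal epithelial cells to the basement membrane. It was at 80 and 62 in SB, 179 and 206 at 3 days, and 247 and 252 at 7 days. The groups did not overlap, and the log2 fold change was 1.43 ± 0.19 (adjusted p = 0.000117) after 3 days and 1.81 ± 0.19 (adjusted p = 8.24e-06) after 7 days. Between 3 and 7 days it was 0.38, with a 95% interval from -0.03 to 0.78. COL13A1, a transmembrane collagen of cell adhesion sites and the neuromuscular junction, followed another course. It was at 705 and 824 in SB, 867 and 1053 at 3 days, and 2662 and 2233 at 7 days, with the 7-day libraries far above the rest. Its log2 fold change was 0.33 (adjusted p = 0.0858) after 3 days, 1.68 ± 0.13 (adjusted p = 9.08e-07) after 7 days and 1.35 ± 0.13 between them (adjusted p = 3.9e-05). Without the first 3-day library the 3-day value was 0.47 (adjusted p = 0.0497). The other transmembrane chains, COL23A1 and COL25A1, were at 0 to 2.

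The multiplexins, collagens XV and XVIII of the basement membrane zone, both rose, by different amounts. COL15A1 was at 18 and 19 in SB, 124 and 118 after 3 days, and 476 and 463 after 7 days. Replicate libraries nearly coincided, and the log2 fold change was 2.65 ± 0.19 (adjusted p = 8.14e-07) after 3 days, 4.59 ± 0.19 (adjusted p = 3.32e-09) after 7 days and 1.95 ± 0.19 between them (adjusted p = 3.4e-05). COL18A1, the parent of the fragment endostatin, was at 1429 and 1829 in SB, 1760 and 2417 at 3 days, and 4083 and 3165 at 7 days. The SB and 3-day libraries overlapped and the 7-day libraries were above both. COL18A1 passed no threshold at 3 days (0.35, adjusted p = 0.136) and was higher at 7 days than in SB by 1.15 ± 0.17 (adjusted p = 0.000119) and than at 3 days by 0.80 ± 0.17 (adjusted p = 0.00385), the latter not past the threshold without the mean-expression trend (adjusted p = 0.0559). Without the first 3-day library its 3-day value was 0.58 (adjusted p = 0.0252). Per kilobase, the ratio of COL18A1 to COL15A1 had a mean of 84.8 ± 11.5 (SD, n = 2) with SB, of 16.7 ± 4.3 with 3 days and of 7.44 ± 1.19 with 7 days of TGFβ. SLC19A1 lies on the opposite strand across 18.5% of the exon bases of COL18A1, and the library kit does not mark strand, so reads of that stretch cannot be told apart.

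The type IV chains of the basement membrane sheet were scarce in all groups. COL4A1 and COL4A2, the chains of the ubiquitous collagen IV network, were at 0 to 3 and at 3 to 17. COL4A5 was at 0 or 1 and COL4A4 at 3 to 9, so that 4 of the 6 chains were under the minimum for the test. COL4A6, whose chain forms the network of some specialized basement membranes together with COL4A5, was at 10 and 18 in SB, 20 and 26 at 3 days, and 47 and 34 at 7 days. The groups did not overlap, and it was higher than in SB at 7 days by 1.5 ± 0.36 (adjusted p = 0.0042). COL4A3, a chain of the alveolar and glomerular basement membrane, was at 9 and 8 in SB, 14 and 16 at 3 days, and 10 and 11 at 7 days, and passed no threshold. Without the mean-expression trend COL4A3 was higher at 3 days (0.75, adjusted p = 0.0106) and lower at 7 days than at 3 days (-0.47, adjusted p = 0.0415).

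FACIT chains went in both directions. COL16A1, a FACIT of many connective tissues, was at 34 and 26 in SB, 112 and 153 after 3 days, and 246 and 211 after 7 days, without overlap. Its log2 fold change was 2.10 ± 0.23 (adjusted p = 2.95e-05) after 3 days, 2.90 ± 0.23 (adjusted p = 9.11e-07) after 7 days and 0.79 ± 0.23 between them (adjusted p = 0.0199). The last of these was lost without the first 3-day library (0.57, adjusted p = 0.172), the first 7-day library (0.68, adjusted p = 0.148) or the second 7-day library (0.90, adjusted p = 0.0667). COL14A1, which binds the surface of collagen I fibrils, was at 172 and 248 in SB, 228 and 179 at 3 days, and 404 and 442 at 7 days. The SB and 3-day libraries overlapped, and at 7 days it was higher than in SB by 1.03 ± 0.19 (adjusted p = 0.000786) and than at 3 days by 1.06 ± 0.19 (adjusted p = 0.0019).

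COL12A1, like COL14A1 a FACIT on the surface of collagen I fibrils, fell. It was at 108 and 118 in SB, 87 and 90 at 3 days, and 23 and 28 at 7 days. All groups were separate, and most of the step lay between 3 and 7 days. The log2 fold change was -0.35 (adjusted p = 0.274) after 3 days, -2.11 ± 0.22 (adjusted p = 1.12e-05) after 7 days and -1.76 ± 0.22 between 3 and 7 days (adjusted p = 0.00022). COL12A1 and COL14A1, alike in domain structure, thus differed in direction in the 7-day comparison.

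COL9A3, a chain of cartilage collagen IX, was lower at 3 days. It was at 47 and 70 in SB, 21 and 34 at 3 days, and 91 and 50 at 7 days, with SB and 7-day libraries overlapping. The log2 fold change was -1.07 ± 0.35 (adjusted p = 0.0369) after 3 days and 1.30 ± 0.35 between 3 and 7 days (adjusted p = 0.0141). The lower 3-day call was lost without the second SB library (-0.79) or the first 3-day library (-0.74). The later step was lost without the first 3-day library (0.97) or the first 7-day library (0.88). Without the trend both calls were lost, with an adjusted p of 0.105 at 3 days and 0.0613 for the later step. COL22A1, a FACIT of tissue junctions, was listed at 0 in the SB and 3-day libraries and at 10 and 8 at 7 days. Its mean of 3.0 kept it out of the test. With no filter on low values it was past the threshold at 7 days against SB (adjusted p = 0.00128) and against 3 days (adjusted p = 0.00898). COL9A2 (5 to 17) and COL21A1 (5 to 13) passed no threshold, and COL9A1, COL19A1 and COL20A1 were at 0 to 4.

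COL8A1 was the other chain that fell. It encodes the alpha1 chain of collagen VIII, a short-chain collagen that forms the hexagonal network beneath endothelia. COL8A1 was at 1049 and 923 in SB, 742 and 888 at 3 days, and 505 and 507 at 7 days. The groups did not overlap, and the log2 fold change was -0.28 (adjusted p = 0.119) after 3 days, -0.96 ± 0.12 (adjusted p = 5.47e-05) after 7 days and -0.68 ± 0.12 between 3 and 7 days (adjusted p = 0.002). COL8A2, its partner, was at 2 and 2, 5 and 6, and 11 and 7, below the minimum for the test. With no filter COL8A2 was higher at 7 days than in SB by 1.71 (adjusted p = 0.013). COL10A1, the short-chain collagen of growth plate cartilage, was at 0 to 5. COL28A1, related to collagen VI by its domains, was at 108 and 153, 142 and 143, and 143 and 140, with a 95% interval of its 7-day log2 fold change from -0.29 to 0.57, and COL26A1 was at 0 to 2.

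**Figure D3:**
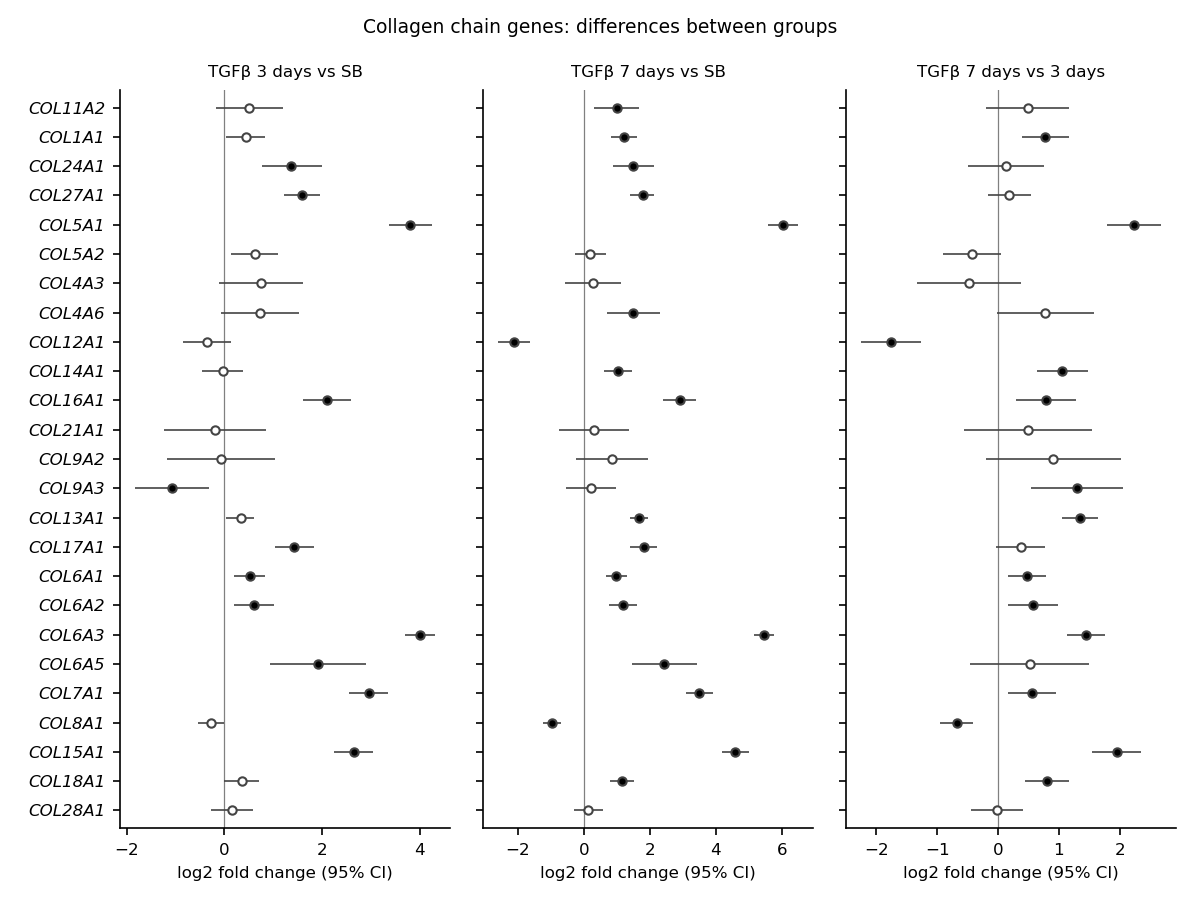
Log2 fold change of the 25 tested collagen chain genes with its 95% confidence interval for TGFβ at 3 days against SB, at 7 days against SB and at 7 days against 3 days, with filled points past the threshold and open points not past it. At 7 days 17 points stand past the threshold on the right and 2, COL8A1 and COL12A1, on the left.

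As shares of the summed collagen level per kilobase, collagen VI held the largest part in each group and its part was smaller with TGFβ. With SB the type VI chains made up 60.3% ± 0.891 (SD, n = 2), and with TGFβ 58.0% ± 1.28 at the earlier and 54.1% ± 0.814 at the later time. COL6A1 ranked first and COL6A2 second among all members in each group, at a mean level of 971 and 615 normalized counts per kilobase in SB and 1940 and 1390 at 7 days. Fibrillar chains held 6.24% ± 0.31 in SB, 11.1% ± 0.225 with 3 days and 11.9% ± 0.433 with 7 days of TGFβ. COL7A1 went from 1.36% ± 0.0376 to 6.64% ± 0.308 and 6.13% ± 0.319. Short-chain collagens, nearly all COL8A1, went from 6.93% ± 1.59 to 3.58% ± 0.293 and 1.43% ± 0.199. Type IV chains held 0.202% ± 0.0369 in SB and 0.154% ± 0.011 at 7 days. COL5A1 and COL6A3, outside the first 12 members in SB, ranked 7 and 8 at 7 days, with 4.68% ± 0.325 and 4.14% ± 0.365. These shares are descriptions, and no test was made of them.

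**Figure D4:**
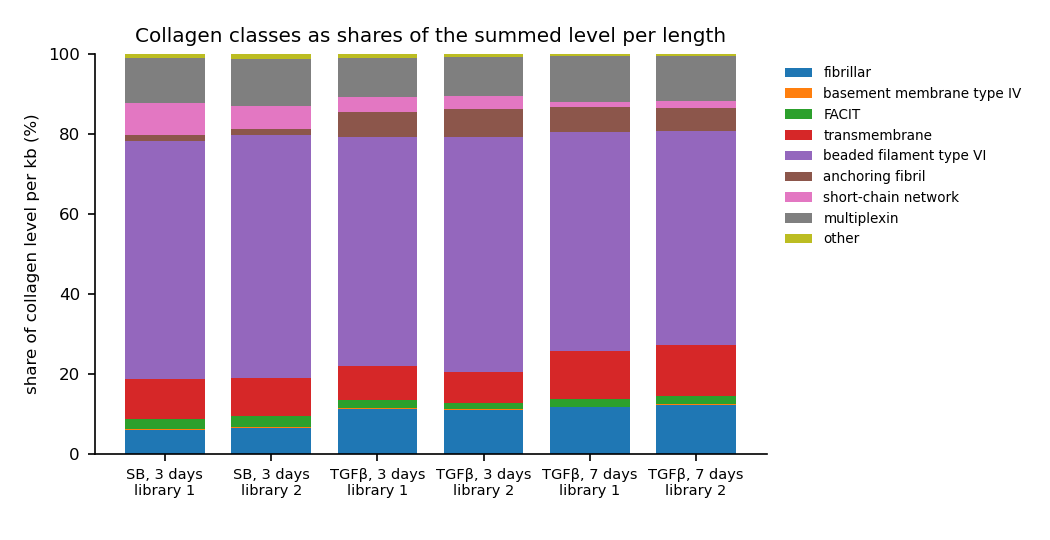
Share (%) of each collagen class in the summed normalized counts per kilobase of transcript of the 44 members, as a stacked bar for each library. Collagen VI fills more than any other class in every bar, and the short-chain class narrows from 6.93% in SB to 1.43% at 7 days.

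The libraries of a group differed by base composition, and GC-rich collagen genes shared that difference. For the 11 tested members with a transcript GC content of at least 60%, the second library exceeded the first by a median of 0.36 on the log2 scale in SB (10 of 11 genes) and of 0.45 at 3 days (10 of 11), and in the 7-day group it was lower in all 11, with a median of -0.35. For the 14 members under 60% the medians were 0.10, 0.19 and -0.01. COL1A1, COL5A1, COL6A1, COL6A2, COL7A1, COL16A1, COL18A1 and COL27A1 are in the GC-rich set, and the replicate spread given for them above includes this difference. With each library corrected for GC content, an alternative added after the data were seen, 16 of the 25 members were past the threshold at 3 days, 15 of them higher. COL1A1 (0.49, adjusted p = 0.0146), COL13A1 (0.37, adjusted p = 0.00869), COL18A1 (0.44, adjusted p = 0.00284) and COL5A2 were then higher at 3 days. The numbers at 7 days against SB (19) and against 3 days (14) were as without the correction. Over all genes, 2475 of 13021 were higher and 2696 lower at 3 days with the correction, and 2149 and 2021 of 14395 without it. At 7 days against SB these were 4144 and 4117 with it, and 3982 and 3869 without it. Between 3 and 7 days they were 3084 and 2788 with it, and 2449 and 2326 without it.

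**Figure D5:**
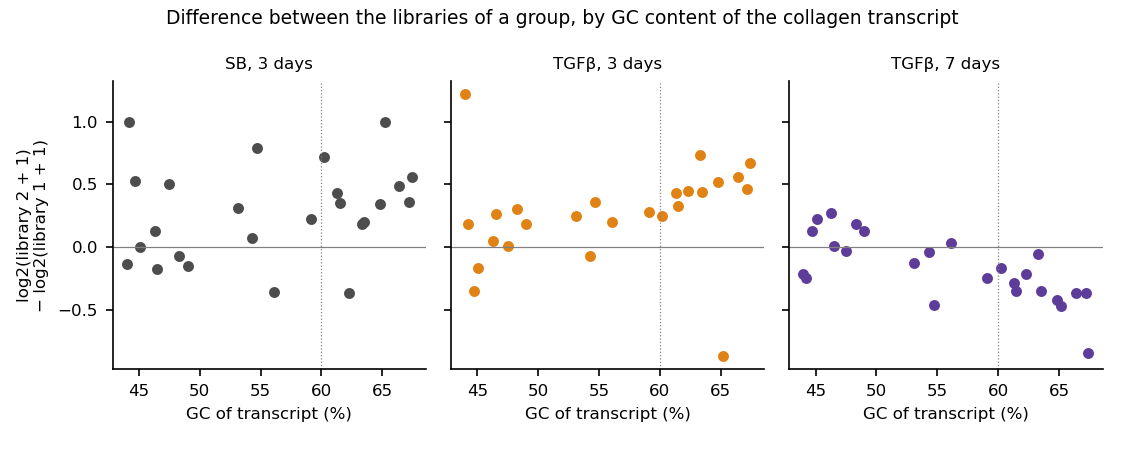
Log2 difference between the second and the first library of each group against the GC content (%) of the transcript for the 25 tested collagen chain genes, with a dotted line at 60%. GC-rich members lie mostly above 0 in SB and at 3 days and all below 0 at 7 days.

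Genes that modify, export and process collagen chains were counted beside all genes tested, of which 14.9% were higher and 14.0% lower at 3 days, and 27.7% and 26.9% at 7 days against SB. Of 13 hydroxylases and partners, which stabilize the triple helix and prepare lysines for crosslinks, 5 were higher at 3 days and 10 at 7 days against SB, and none was lower. P4HA3, a prolyl hydroxylase subunit, went from 88 and 60 in SB to 667 and 722 at 7 days (log2 fold change 3.24, adjusted p = 5.07e-08). P4HA2, PLOD1 and PLOD2 were higher by 1.26, 1.12 and 0.71. LEPREL2, also higher at 7 days, had a mean of 8.0 in SB and met the minimum for the test only through the TGFβ libraries. Of 8 chaperone and export genes, 3 were higher at 3 days and 6 at 7 days and none was lower, among them the collagen chaperone SERPINH1 (0.72, adjusted p = 2.83e-05) and CTAGE5 (1.25), FKBP14 (0.75) and FKBP10 (0.68). Of 7 propeptidase genes tested 4 were higher and 1 lower at each time, with BMP1, which removes the C-terminal propeptide of fibrillar collagens, at 369 and 432 in SB and 3106 and 2860 at 7 days (2.90, adjusted p = 5.38e-09), and its enhancer PCOLCE2 higher by 2.05. ADAMTS14, an N-terminal propeptidase, was the lower one, at 104 and 297 in SB, 24 and 24 at 3 days, and 74 and 75 at 7 days. Its SB libraries differed widely from each other, and it was higher at 7 than at 3 days (1.59, adjusted p = 0.00771). Of the higher ones TLL1 was at 0 and 2 in SB and 31 and 25 at 7 days, and ADAMTS3 at 14 and 5 against 52 and 51. With means of 1.0 and 9.5 in SB, TLL1 and ADAMTS3 met the minimum for the test only through the TGFβ libraries. Between 3 and 7 days, where 17.0% of all genes tested were higher and 16.2% lower, 8 hydroxylases and partners, 5 chaperone and export genes and 4 propeptidase genes were higher, and 1 of these lists' genes, the prolyl hydroxylase LEPREL1, was lower (-1.03, adjusted p = 0.00138).

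Of 5 lysyl oxidases that crosslink fibrils, 1 was higher than in SB and 2 were lower at 3 days (14.9% and 14.0% of all genes tested), and 3 were higher and 2 lower at 7 days (27.7% and 26.9%). LOX, the most abundant of them by count, was at 13939 and 10091 in SB and at 6206 and 6298 at 7 days (-0.92, adjusted p = 8.94e-05), and was not past the threshold at 3 days (adjusted p = 0.0658). LOXL3 was lower at both times, by -0.91 and -1.25. LOXL2 was lower at 3 days (-0.33, adjusted p = 0.041) and higher at 7 days (0.33, adjusted p = 0.0253). LOXL1 was higher by 0.49 and 0.65, and LOXL4, at 15 to 79, was higher at 7 days (1.48, adjusted p = 0.00601). Between 3 and 7 days 2 oxidases were higher and LOX was lower (-0.58, adjusted p = 0.00541).

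Of 8 collagen receptor genes tested, 4 were higher at 3 days and 5 at 7 days against SB, with none lower, beside 14.9% and 27.7% higher and 14.0% and 26.9% lower over all genes tested. Between 3 and 7 days 4 receptors were higher and 1, ITGA2, was lower (-0.68, adjusted p = 0.000122), beside 17.0% and 16.2% of all genes tested. The collagen-binding integrin chain ITGA10 went from 694 and 423 in SB to 5582 and 5602 at 7 days (3.37, adjusted p = 2.83e-08), ITGA11 was higher by 2.44, the endocytic receptor MRC2 by 2.30 and the collagen-sensing kinase DDR1 by 2.09. Of 6 collagenase and gelatinase genes tested, 5 were higher at 3 days and 4 at 7 days against SB, with none lower, and between 3 and 7 days 2 were higher and 2 lower. The lower ones were the secreted collagenases MMP1, at 421 and 251 in SB, 647 and 631 at 3 days and 279 and 290 at 7 days (-1.16, adjusted p = 0.00134), and MMP13, at 422 and 390, 814 and 831, and 338 and 425 (-1.12, adjusted p = 0.000176). MMP14, a membrane-bound collagenase, went from 24795 and 21290 to 135615 and 122833 (2.49, adjusted p = 3.18e-09). MMP2 and MMP9, higher than in SB at both times, had means of 4.5 and 6.0 in SB. Both met the minimum for the test only through the TGFβ libraries. Of 6 fibril partners tested, 4 were higher at 3 days and 5 at 7 days against SB, 3 were higher between 3 and 7 days and none was lower in these comparisons, with TGFBI (3.77), THBS1 (3.37), SPARC (2.98) and FN1 (1.71) at 7 days, and the small proteoglycans FMOD and LUM, which coat collagen I fibrils, were at 0 in every library. THBS2, also higher at 7 days, had a mean of 7.0 in SB and met the minimum in the same way. The fibroblast markers PDGFRB and FAP were higher in the same libraries as COL5A1, COL6A3 and COL15A1, at 21 and 17 against 354 and 270 for PDGFRB and 4 and 0 against 42 and 53 for FAP in SB and at 7 days. The fibroblast marker PDGFRA did not go with them, at 14 and 8 in SB and 13 and 8 at 7 days. Of the 7 fibroblast markers 4 were at 10 or less in every library, and the part of these markers in the collagen values was not tested.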

How the data were processed

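PolyA RNA of H2087-LCC cells was sequenced in 3 groups of 2 libraries. The authors aligned reads to hg19 with STAR, counted genes with HTSeq 0.6.1p1 and scaled by library size (DESeq2 is named in the submitters' processing notes). The deposited values, held here under the unit score, are whole-number normalized counts for 21293 genes. They are not raw counts, so no count model was fitted. The annotation release is not given in the sources used here.

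Members were matched by symbol, and all 44 were found in the GENCODE annotation of GRCh37, which gave coordinates, exon overlap, and transcript length and GC content from canonical transcripts. Values were transformed as log2(value + 1). A minimum mean of 10 over the libraries left 14395 genes, which were fitted in one model of all 6 libraries with limma 3.58.1 in R 4.3.3 (moderated test with a mean-expression trend, 3 residual degrees of freedom), and p-values were adjusted by Benjamini-Hochberg at 0.05 for each comparison. The fit was tested on simulated data that had the same dispersion setting for every gene and no effect of GC content. That test therefore does not show how the fit behaves with the GC differences of these libraries. Depth was estimated from gaps among low values and covers counting error only.

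The members and lists were chosen with earlier results of these data known. Every tested member past the threshold in at least 1 comparison was described with its library values. From the accompanying lists up to 4 genes were named, those of largest 7-day change that passed the test and averaged 100 or more. ADAMTS14, TLL1, ADAMTS3, FMOD, LUM, DCN, THBS2, PDGFRA, PDGFRB, FAP, KRT8, KRT18, EPCAM, KRT7, KRT19, NKX2-1, NAPSA, SFTPB, SFTPC, THY1, LEPREL1, LEPREL2, LOXL4, ITGA2, MMP1, MMP2, MMP9 and MMP13 were named outside that rule, after their values were seen. Alternatives were pseudocount, filter, scaling, trend, replicate block, omission of each library and GC content correction.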

Additional observations from a re-analysis of the deposited data

Results flagged for a closer look

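For 14 of the 25 collagen chain genes tested, the change relative to SB differed between 3 and 7 days of TGFβ. The limma test of 7 days against 3 days is the test of that difference. As 7-day minus 3-day log2 fold change, the difference was positive for 12 (48% of the 25), beside 17.0% of all 14395 genes tested. COL5A1 (2.23), COL15A1 (1.95), COL6A3 (1.45), COL13A1 (1.35), COL9A3 (1.30) and COL14A1 (1.06) had values above those of COL18A1 (0.80), COL16A1 (0.79), COL1A1 (0.78), COL6A2 (0.58), COL7A1 (0.56) and COL6A1 (0.47). The difference was negative for COL12A1 (-1.76) and COL8A1 (-0.68), 8.0% of the 25 beside 16.2% of all genes tested. SB was sampled at 3 days alone, so time with TGFβ and time in culture cannot be told apart in these values.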

How the results depend on the processing

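At 3 days against SB, between 10 and 13 members passed the threshold when each library was left out in turn (9 to 13 higher, 0 to 1 lower), the remaining library of that group being assumed to vary like the others, and the 1 lower member, COL9A3, was lost (0) with no filter on low values and without the trend. At 7 days against SB the number was 18 to 19. Between 3 and 7 days it was 8 to 14 (6 to 12 higher), with 8 members (6 higher) without the first 3-day library or without the first 7-day library, 8 (6 higher) with no filter, and 7 higher without the trend, from 14 (12 higher) as reported. With equal library totals the numbers were 10, 19 and 12. A replicate block gave 12, 19 and 14, as without it, and changed no call. Each group has replicate numbers 1 and 2. Over 14395 genes, deviations of same-numbered libraries correlated at 0.14 (SB and 3 days), -0.1 (SB and 7 days) and -0.292 (3 and 7 days). The differences between the libraries of a group also went with GC content, so these correlations cannot settle whether same-numbered libraries share more than a number. At an unadjusted p under 0.05 the members numbered 16, 19 and 14. All genes were not counted at that threshold, so these numbers have no background beside them.

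Values that turned sign were all of comparisons not past the threshold, and none passed it after turning. With each library left out in turn, these ran from -0.29 to 0.23 for COL14A1, -0.56 to 0.44 for COL9A2, -0.81 to 0.42 for COL21A1 and -0.10 to 0.40 for COL28A1 at 3 days, from -0.11 to 0.39 for COL28A1 and -0.19 to 0.66 for COL9A3 at 7 days against SB, and from -0.11 to 1.11 for COL21A1, -0.0254 to 0.41 for COL27A1 and -0.0253 to 0.00503 for COL28A1 between 3 and 7 days. COL28A1 between 3 and 7 days turned to 0.00249 with upper quartile scaling and 0.0124 with GC content correction, with or without the replicate block. COL9A2 at 3 days turned to 0.00911 with GC content correction, with or without the block. Of 1323 alternative values for single members, 1245 kept direction and side of the threshold, 45 were no longer past it, 16 were newly past it and 17 turned sign. The cause was not tested. The 19 members under the minimum were not tested, and of these COL4A2 (mean 8.33) was nearest below it, with COL9A2 (10) nearest above.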

Other observations

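Rows related to collagen genes that are no chain genes were low in every library. The pseudogene COL6A4P1 was at 15 and 22 in SB, 17 and 8 at 3 days, and 14 and 15 at 7 days. The antisense transcripts COL18A1-AS1 and COL18A1-AS2 were at 0 to 3, and COL4A2-AS1 was at 0 throughout.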
